A study of Mus musculus with 6 samples.

Results

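Mitochondrial calcium uniporter and exchanger genes were examined in liver RNA of 6 mice aged 23 months, 3 wild-type mice and 3 mice that lack Itpr2. The set holds 7 genes, namely the uniporter pore Mcu and its relative Mcub, the uniporter partners Micu2, Smdt1 and Mcur1, and the exchangers Letm1 and Slc8b1. Members were the array probes whose accession belongs to one of these genes, which gave 9 of 39429 probes and 7 of 21367 genes with a symbol. Both groups were C57Bl/6 mice of a survival cohort on standard diet and water, without treatment, and all livers were snap-frozen after sacrifice. By their labels, the knockout mice differ from the wild-type mice by loss of Itpr2, which encodes a calcium release channel of the endoplasmic reticulum. The labels name no allele, promoter or Cre line, and whether the genotypes differ elsewhere in the genome was not examined here. The animals were independent of each other, as the series design states. One-colour Agilent arrays were used, 1 per mouse, and these libraries are called WT 1 to WT 3 and KO 1 to KO 3 after the replicate numbers of the labels.

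Mitochondria take up calcium through the uniporter, a channel of the inner membrane whose pore is formed by MCU. The small protein EMRE, encoded by Smdt1, links the pore to EF-hand gatekeepers such as MICU2, which help to keep it closed at resting calcium. MCUB resembles MCU but conducts poorly and lowers the current of the channels it joins. Calcium leaves the matrix again through the sodium-calcium exchanger NCLX, encoded by Slc8b1, while LETM1 is an inner-membrane protein that exchanges cations for protons. In hepatocytes, calcium released by inositol trisphosphate receptors reaches mitochondria at close contacts with the endoplasmic reticulum and stimulates dehydrogenases of the matrix.

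Every level below is the log2 signal of a probe after subtraction of its array's 75th percentile, and a change is the knockout mean minus the wild-type mean of such levels. The share of probes well above background ran from 57.3% to 59.4% over the arrays, and 0 spots were saturated. The targeted gene Itpr2 had levels of 3.04, 3.07 and 3.08 in wild type and 2.54, 2.38 and 2.20 in the knockout. A single probe reads Itpr2, and whether it lies in the deleted part was not analysed here. All 9 hepatocyte markers examined, Alb, Ttr and Hnf4a among them, were well above background on every array. WT 1 and KO 3 stand apart from the other arrays. The summed linear signal of 13 striated muscle markers, relative to the 75th percentile, was 140 on WT 1 and 150 on KO 3 and between 0.506 and 0.717 on the 4 other arrays. Fat markers summed to 15.5 on KO 3 and to between 0.122 and 2.08 elsewhere. Slide 1 held KO 1 with WT 1 and WT 2, and slide 2 held WT 3 with both remaining knockout arrays.

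Of the 7 genes, 6 were measured well enough to be tested, and Mcub was too dim, with 0 wild-type spots well above background. Slc8b1 was the member whose levels stood apart by genotype, at 2.13-fold the wild-type mean (95% interval 1.14 to 3.97, limma, n = 3 per genotype). Mcu, Micu2, Smdt1, Mcur1 and Letm1 had means between 0.877-fold and 1.03-fold of wild type, with overlapping arrays. In the limma fit over 17991 genes, 0 of 6 members passed the adjusted threshold of 0.05, where 0.00556% of all genes did, and 1 of 6 had an unadjusted p under 0.05, where 6.13% of all genes did. The genotypes lay fully apart for 1 of 6 members, with the knockout above, and for 12.0% of all genes (6.85% with the knockout above and 5.11% with it below). These shares do not set the members apart from the background.

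**Figure D1:**
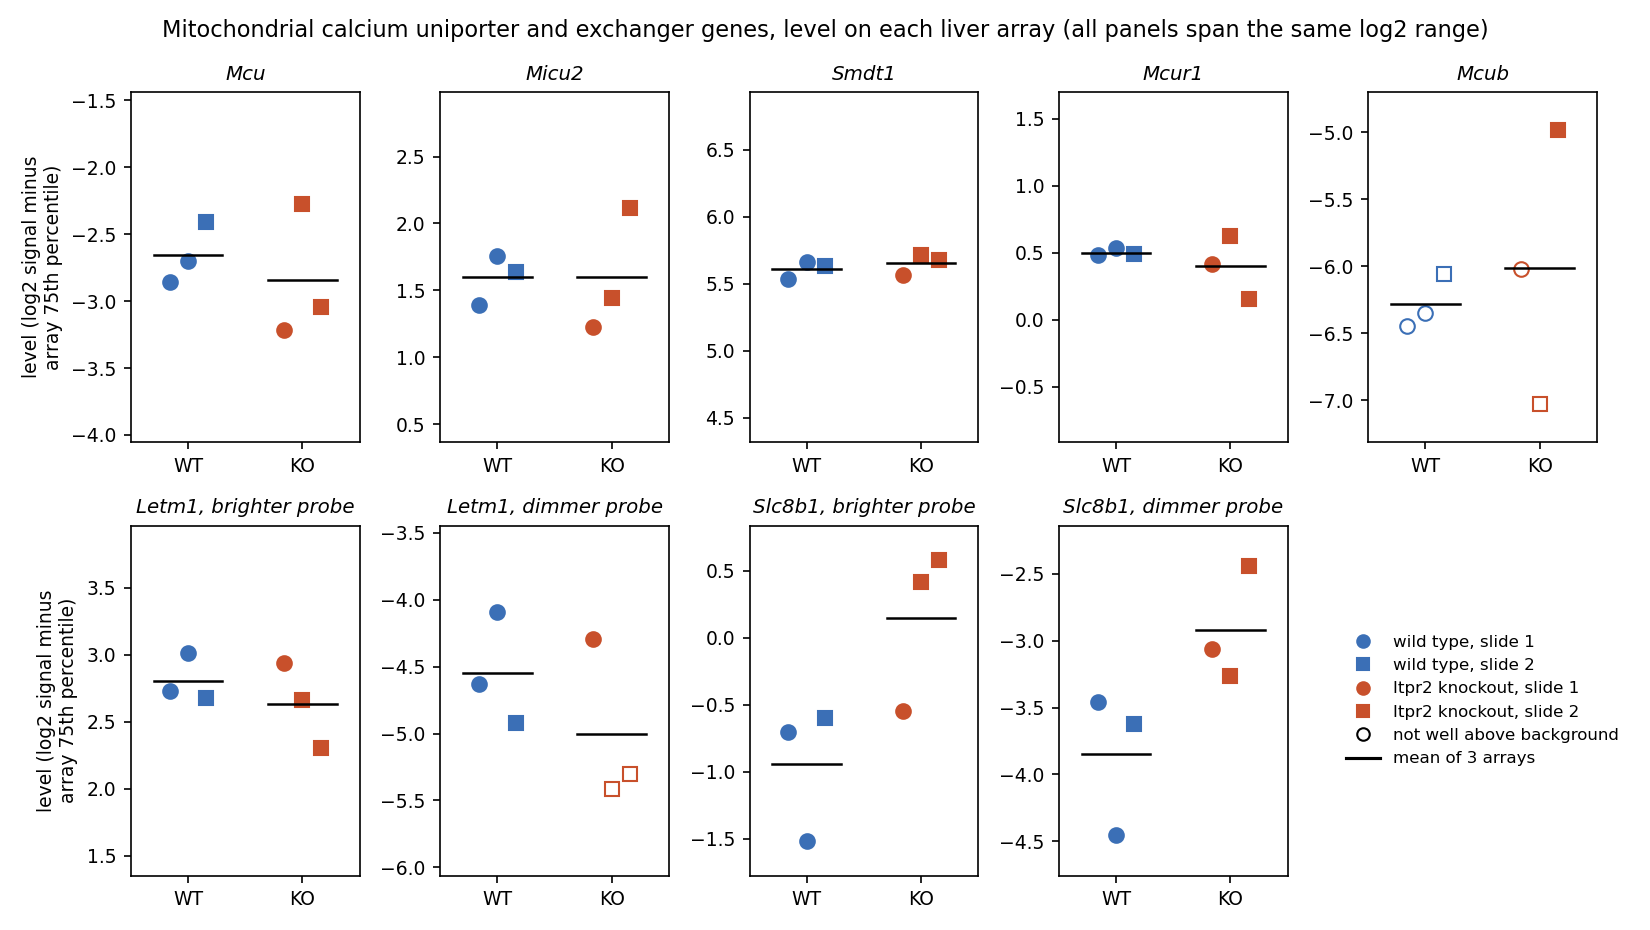
Level of each of the 9 probes on each array, as log2 signal minus the array's 75th percentile, with wild type in blue, knockout in red, circles for slide 1, squares for slide 2, open symbols for spots not well above background and bars for the mean of 3 arrays. All panels span the same log2 range. Both Slc8b1 probes have all knockout arrays above all wild-type arrays, and the tested probes of the other genes overlap.

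Mcu, which forms the pore, was read by 1 probe that was well above background on all 6 arrays. Its levels were -2.86, -2.70 and -2.41 in wild type and -3.22, -2.27 and -3.04 in the knockout. KO 2 was the highest array and KO 1 the lowest, so the wild-type values lay inside the range of the knockout. Wild type had a mean of -2.66 ± 0.23 (SD, n = 3), and the knockout one of -2.84 ± 0.50 (SD, n = 3). The log2 change was -0.19 ± 0.27 (SE), with a 95% interval from -0.85 to 0.47 and a limma adjusted p of 0.907. In linear terms the interval runs from 0.556-fold to 1.38-fold. Within the slides the change was -0.44 on slide 1 and -0.25 on slide 2. With the slide as a block it was -0.35, and without KO 2 it was -0.47 and without KO 1 -0.0031. Normexp background correction, in place of the scanner software's own, turned the direction of Mcu to 0.84 ± 0.42 (SE, limma adjusted p = 0.185). The normexp setting also added an offset of 50, while the scanner signals of Mcu ran from 30.7 to 70.4. The part of the offset was not tested.

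Mcub, the poorly conducting relative of the pore, was near the detection limit of the arrays. Its single probe had levels of -6.44, -6.35 and -6.06 in wild type and -6.02, -7.03 and -4.98 in the knockout. KO 3 was the 1 array of 6 with an Mcub spot well above background. The lowest level of any probe well above background was between -5.83 and -5.47 on these arrays, and 5 of the 6 Mcub values lay below that range. The error that the scanner software estimated for the Mcub spot was 20.6% of its signal on KO 3 and 66.4% on KO 2. Set against the lowest detectable wild-type level, the knockout mean gives a ratio under 1, so no fold is given, and the gene was not tested. KO 3 is also one of both arrays with muscle transcripts and the array with the highest sum of fat markers. B cell markers, 5 genes in all, summed to 16.0 on KO 3 against 0.917 to 6.13 on the other arrays. Neutrophil markers, 5 genes on the array, summed to 55.6 on KO 1, 36.0 on KO 3, 5.63 on KO 2 and 8.21 to 14.5 in wild type. Other immune lists were not raised above wild type on KO 3. Monocyte and macrophage markers summed to 14.2 there (wild type 13.7 to 15.4). T and NK cell markers summed to 8.27 (wild type 5.33 to 9.12) and Kupffer cell markers to 117 (wild type 120 to 248). The part of these cell types in the Mcub signal was not tested.

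Smdt1, which encodes the EMRE subunit, was the most even tested member across the mice in the signals of the scanner software. Its levels were 5.53, 5.66 and 5.63 in wild type and 5.57, 5.72 and 5.68 in the knockout. All 6 arrays lay within 0.19 log2 units and the genotypes overlapped. The residual SD of Smdt1, 0.072, was larger than that of only 3.28% of all tested genes. Its log2 change of 0.045 ± 0.12 (SE) had a 95% interval from -0.24 to 0.33 and a limma adjusted p of 0.953. On the linear scale this is 0.846-fold to 1.26-fold, the narrowest interval of the tested members. The sign of the change turned with median scaling (-0.036), with quantile normalization (-0.020), within slide 1 (-0.028) and without WT 1 and KO 3 (-0.0040). With normexp background correction the Smdt1 change was -0.54, which lies outside that interval.

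Micu2, an EF-hand gatekeeper of the channel, had nearly equal means in both genotypes and more spread in the knockout. Its levels were 1.39, 1.76 and 1.64 in wild type and 1.23, 1.44 and 2.12 in the knockout. KO 3 was the highest array and KO 1 the lowest. Its log2 change of 0.00013 ± 0.25 (SE) had a 95% interval from -0.61 to 0.61 and a limma adjusted p of 1.00. Without KO 3 the change of Micu2 was -0.26, without WT 1 it was -0.10, and without both of these muscle-bearing arrays it was -0.36 (limma adjusted p = 0.789). Within slide 1 the change was -0.35, within slide 2 it was 0.14, and with normexp it was -0.51.

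Mcur1, a regulator of uniporter activity, was tight in wild type, at 0.48, 0.53 and 0.49, and wider in the knockout, at 0.42, 0.63 and 0.16. KO 3 was the lowest array and KO 2 the highest. The SD was 0.027 in wild type and 0.24 in the knockout (n = 3 each). Knockout minus wild type was -0.10 ± 0.15 (SE), with a 95% interval from -0.47 to 0.27 and a limma adjusted p of 0.914, and without KO 3 it was 0.020. With normexp the Mcur1 change was -0.35, and without KO 2 it was -0.21.

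Letm1, the cation-proton exchanger, was read by 2 probes of the same accession. The brighter probe had levels of 2.73, 3.01 and 2.68 in wild type and 2.94, 2.66 and 2.30 in the knockout. KO 3 was the lowest array and the other knockout arrays overlapped wild type. The log2 change was -0.17 ± 0.20 (SE), with a 95% interval from -0.65 to 0.30 and a limma adjusted p of 0.881. Without KO 3 the change of Letm1 was -0.0080, and within slide 1 it was 0.068 and within slide 2 -0.20. Normexp gave -0.84 for Letm1, outside the interval (limma adjusted p = 0.157), and the mean of both probes gave -0.31. The dimmer probe had levels of -4.63, -4.09 and -4.92 in wild type and -4.29, -5.41 and -5.30 in the knockout, and 1 of those 3 knockout spots was well above background. Its measured difference was -0.46, with a limma adjusted p of 0.838 over all probes, and both probes overlapped between genotypes.

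Slc8b1, the exchanger through which sodium-dependent calcium efflux from the matrix runs, was read by 2 probes of the same accession, both well above background on all 6 arrays. The brighter probe had levels of -0.70, -1.52 and -0.60 in wild type and -0.54, 0.42 and 0.58 in the knockout. All 3 knockout arrays were above all 3 wild-type arrays, though KO 1 exceeded WT 3 only narrowly and WT 2 lay below the rest. The log2 change was 1.09 ± 0.37 (SE), with a 95% interval from 0.19 to 1.99. Limma gave an unadjusted p of 0.0244 and an adjusted p of 0.811, so Slc8b1 did not pass the threshold, and it ranked 509 of 17991 genes by p. By exact permutation of the arrays (two-sided) p was 0.1, which is the lowest that a design of 3 against 3 can reach. The size of the change was larger than that of 98.4% of all tested genes, and the residual SD of 0.56 was larger than that of 89.7% of them.

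The dimmer Slc8b1 probe read the same RNA and gave a like difference. Its levels were -3.46, -4.45 and -3.62 in wild type and -3.06, -3.26 and -2.45 in the knockout, again with no overlap. The log2 change was 0.92 ± 0.33 (SE), or 1.89-fold, with a limma adjusted p of 0.805 over all probes. WT 2 was the lowest array and KO 3 the highest for both probes, while KO 2 stood nearer to KO 3 on the brighter probe and nearer to KO 1 on the dimmer one. The error that the scanner software estimated for a single spot was at most 10.1% of the signal for the brighter probe and at most 13.3% for the dimmer one. As both probes were read on the same 6 RNA samples, they are not further replicates of the genotype.

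**Figure D2:**
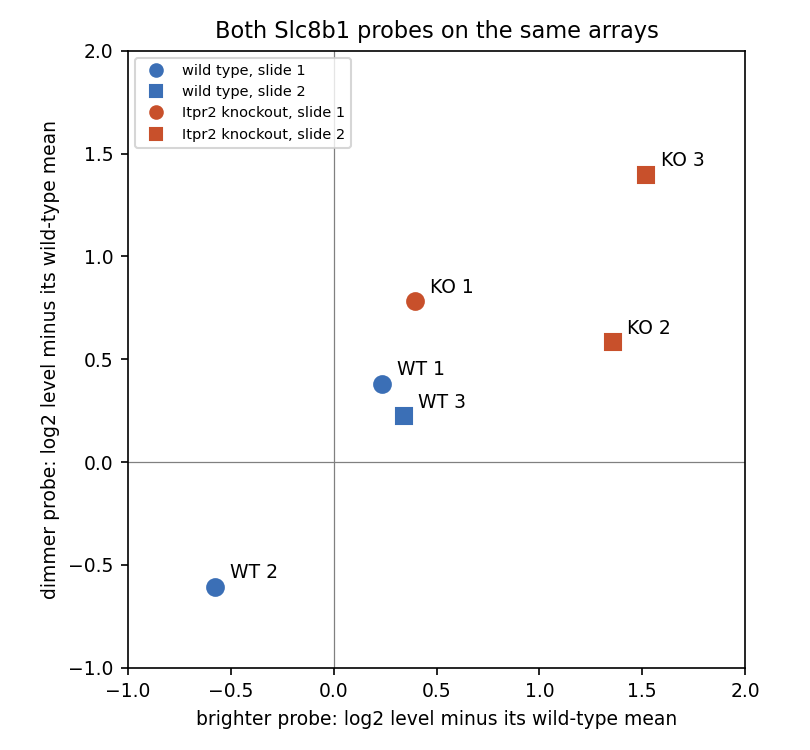
Level of the dimmer Slc8b1 probe against the brighter one on the same 6 arrays, each as log2 level minus that probe's wild-type mean, with wild type in blue, knockout in red, circles for slide 1 and squares for slide 2. All 3 knockout arrays lie above and to the right of all 3 wild-type arrays, WT 2 is lowest and KO 3 highest on both axes.

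The Slc8b1 difference kept its sign within each slide. It was 0.57 on slide 1, where KO 1 is the only knockout array, and 1.10 on slide 2, where WT 3 is the only wild-type array. With the slide as a block it was 0.83 ± 0.28 (SE). Leaving out 1 array gave values from 0.80, without WT 2, to 1.44, without KO 1, and without WT 1 and KO 3 the change was 0.99. Hepatocyte markers, 9 of 9 well above background, summed to between 973 and 1072 in wild type and to 1020 on KO 1, 1246 on KO 2 and 1345 on KO 3, so KO 3 and KO 2 were the highest arrays for these markers. They were also the highest for the brighter Slc8b1 probe, whereas on the dimmer probe KO 3 and KO 1 were, at -2.45 and -3.06, with KO 2 at -3.26. Kupffer cell markers, 8 of 8 well above background, summed to between 120 and 248 in wild type and 94.6 and 125 in the knockout. The part of these cell types in the Slc8b1 difference was not tested. In bulk tissue, a change in the number of cells of a type and a change in RNA per cell cannot be told apart.

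Whether partners of one complex shifted unequally was asked of the within-array difference between 2 genes, from which any scaling of the array cancels. Such differences are not ratios of transcript amounts, since probes differ in brightness. Micu2 minus Mcu had a wild-type mean of 4.25 ± 0.21 (SD, n = 3), and a knockout mean of 4.44 ± 0.72 (SD, n = 3). The genotypes differed by 0.19 for Micu2, by 0.23 for Smdt1 and by 0.088 for Mcur1, each taken relative to Mcu, with exact two-sided permutation p of 0.8, 0.5 and 0.9. With normexp all 3 turned, to -1.35, -1.38 and -1.19. Micu2 minus Mcu also turned without KO 3 (-0.17), and Mcur1 minus Mcu without KO 1 (-0.11) and without WT 3 (-0.042), while Smdt1 minus Mcu was 0.49 without KO 2 and 0.091 without KO 1. Letm1 minus Slc8b1, the difference between both exchangers, was 3.43, 4.53 and 3.28 in wild type and 3.48, 2.24 and 1.72 in the knockout. KO 1 lay among the wild-type arrays, and KO 2 and KO 3 lay below them. The mean was lower by a log2 value of -1.26 in the knockout (exact permutation p = 0.3, and 0.9 after Benjamini-Hochberg adjustment over 4 differences), with -0.50 on slide 1 and -1.30 on slide 2. The lowest p that this permutation can reach with 3 against 3 arrays is 0.1, so no difference could fall under 0.05. All 4 differences were above that lowest value, with arrays that overlapped between genotypes.

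The SD over the 3 knockout arrays was above that over the 3 wild-type arrays in 6 of 6 tested members. As 71.6% of all 17881 genes without a missing value had the same order, this count is not set apart from the background, and it was not tested. The gap was widest in relative terms for Mcur1 and smallest for Smdt1, with SDs of 0.068 and 0.077 in wild type and knockout, and Slc8b1, with 0.50 and 0.61. KO 3 was the highest or lowest array for 4 of 6 members and for 49% of all genes. It was highest for Micu2 and Slc8b1 and lowest for Mcur1 and Letm1, so the members did not follow a common order across the arrays.

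Further genes of mitochondrial calcium handling were taken from 4 lists, 34 of whose 36 genes were measured. Of these, 24 had a lower and 10 a higher mean in the knockout, and the median change was -0.14, where the median over all 17991 genes was 0.022 and 54.1% of them had a higher mean. By limma 0 of 34 passed the adjusted threshold in either direction (0.00556% of all genes did). An unadjusted p under 0.05 was found for 1 of 34, where 6.13% of all genes had one. The genotypes lay fully apart for 4 of 34, with the knockout above for 1 and below for 3, where 12.0% of all genes did. With normexp and with median scaling the number with a lower mean was 28 of 34. The median change was -0.61 and -0.22, against medians over all genes of 0.094 and -0.059. Median scaling shifts every gene of an array alike, so the lists and the background moved together. Without KO 1 the number over the lists was 19 and their median -0.062, and without KO 3 they were 23 and -0.058. Without WT 1 and KO 3 the number was 23, and within the slides it was 25 on slide 1 and 18 on slide 2, where the median was -0.063.

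Among 8 measured regulators of the uniporter outside the 7 genes, 7 had a lower mean, with changes between -0.21 and 0.10. For Micu3, 0 of 6 spots were well above background. The prohibitin genes Phb2 and Phb, scaffold proteins of the inner membrane, had log2 changes of -0.21 ± 0.16 (SE) and -0.042 ± 0.21, the latter without WT 1, whose spot was an outlier. The protease genes Afg3l2 and Spg7, whose products remove unassembled EMRE, had changes of -0.17 ± 0.14 and -0.047 ± 0.16.

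Of 9 genes of the outer membrane and of other calcium routes, 6 had a lower mean. The porin genes Vdac1 and Vdac3, through which calcium crosses the outer membrane, had log2 changes of 0.034 ± 0.12 (SE) and 0.0072 ± 0.12, and Ghitm, which encodes an inner-membrane protein linked to calcium-proton exchange, one of -0.025 ± 0.23. Ucp3, an uncoupling protein gene, had levels of 0.46, 0.32 and 0.50 in wild type and 0.19, -0.48 and -0.20 in the knockout. All knockout arrays lay below wild type, and the muscle-bearing arrays WT 1 and KO 3 lay between the others of their genotype. The log2 change of Ucp3 was -0.59 ± 0.19 (SE), with a limma unadjusted p of 0.0203 and an adjusted p of 0.811. Its relative Ucp2 had levels of 0.18, 0.027 and 0.26 in wild type and 0.019, -0.69 and -0.28 in the knockout, and a log2 change of -0.47 ± 0.20 (SE, limma adjusted p = 0.811). KO 1 lay just below WT 2 for Ucp2, and KO 2 was lowest for both genes. Kupffer cell markers summed to 248, 120 and 187 in wild type and to 125, 94.6 and 117 in the knockout. KO 2 was lowest for these markers as well, while KO 1 lay just above WT 2. The part of cell types in the Ucp2 and Ucp3 differences was not tested.

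The list drawn up for calcium-sensitive mitochondrial enzymes and carriers, 13 of 14 genes measured, had 8 lower and 5 higher means. Whether each listed gene's product responds to calcium was not examined. Pdha1, the catalytic subunit of pyruvate dehydrogenase, had levels of 1.25, 1.40 and 1.05 in wild type and 0.99, 0.98 and 0.53 in the knockout, with no overlap. Its log2 change was -0.40 ± 0.18 (SE), with a limma adjusted p of 0.811. Idh3a, the catalytic subunit of the isocitrate dehydrogenase of the citric acid cycle, had a change of -0.35 ± 0.22. Pdhb, Idh3g and Ogdh, which encode further subunits of these dehydrogenases and of oxoglutarate dehydrogenase, had changes of -0.22 ± 0.19, -0.056 ± 0.18 and 0.055 ± 0.12, and none of the 13 passed.

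Permeability transition genes, 4 of 4 measured, had 3 lower means and 1 higher one. Ppif, which encodes cyclophilin D, a matrix protein that favours opening of the transition pore, had a log2 change of 0.45 ± 0.25 (SE, limma adjusted p = 0.814). Slc25a5 and Slc25a4, both adenine nucleotide carriers, had changes of -0.19 ± 0.17 and -0.14 ± 0.73. The wide error of Slc25a4, the form of heart and skeletal muscle, came with levels of 4.31 on WT 1 and 4.13 on KO 3 against 2.12 to 2.35 on the 4 other arrays, the same arrays on which the muscle markers were high. Tspo, an outer membrane protein, had a change of -0.15 ± 0.17.

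**Figure D3:**
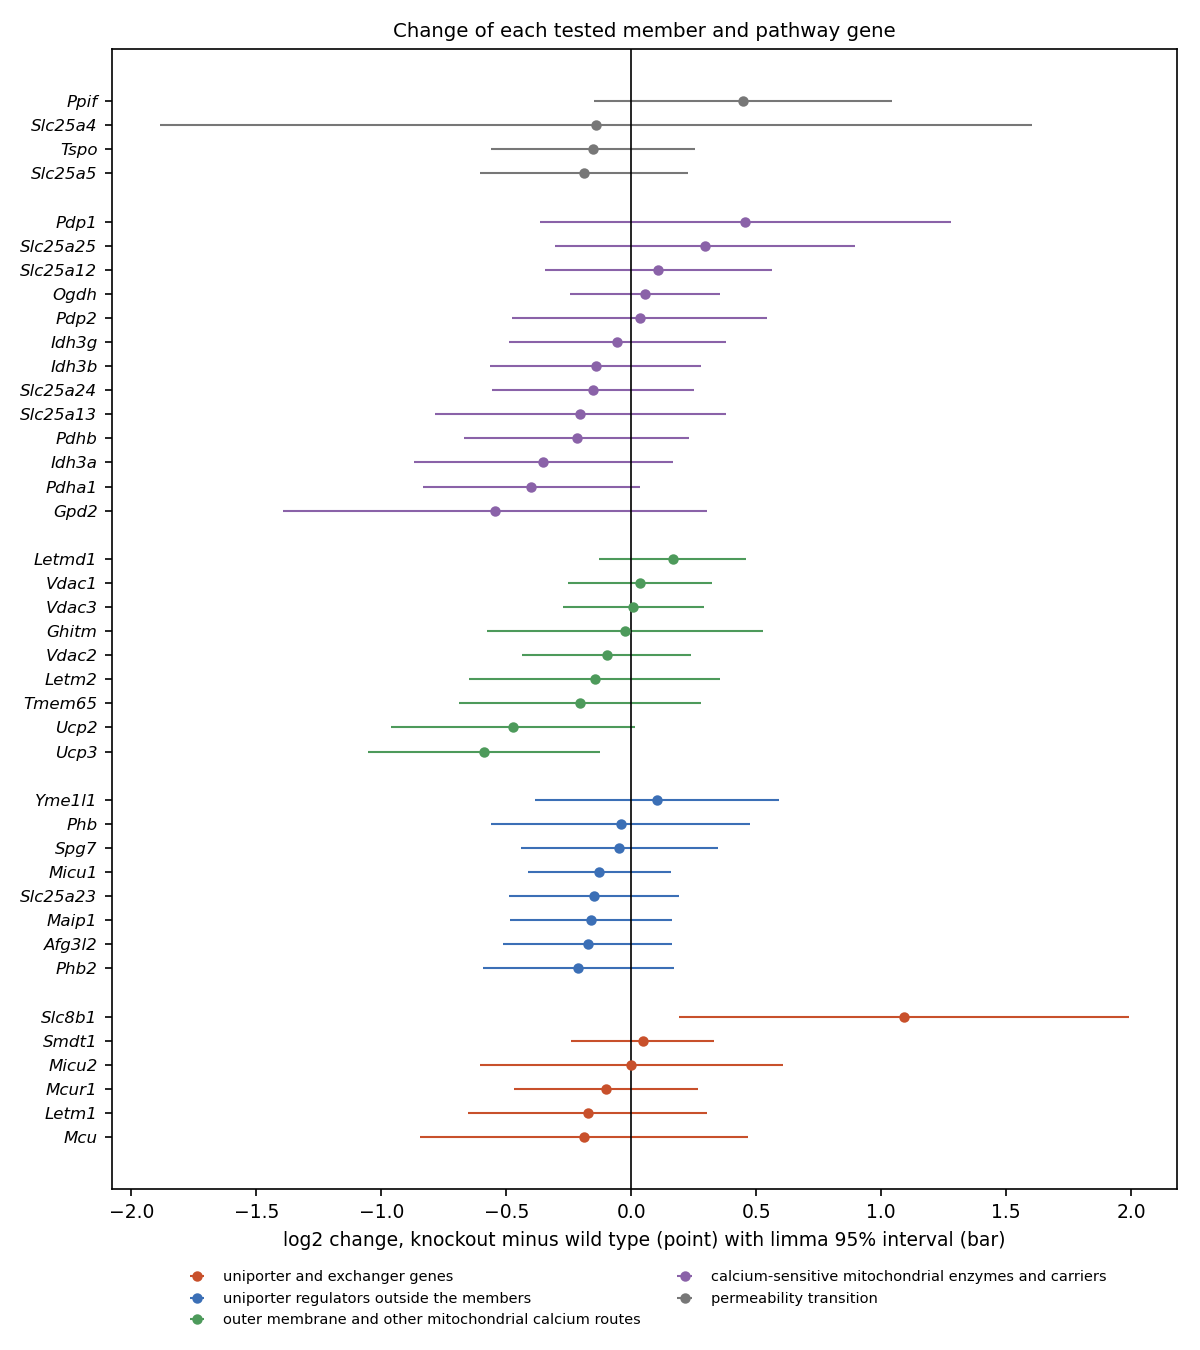
Log2 change, knockout minus wild type, of the 6 tested uniporter and exchanger genes (red) and of 34 further genes of mitochondrial calcium handling (other colours by list), as points with limma 95% intervals. Slc8b1 and Ucp3 are the genes whose unadjusted interval leaves out 0, on opposite sides, and Slc25a4 has the widest interval.

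**Figure D4:**
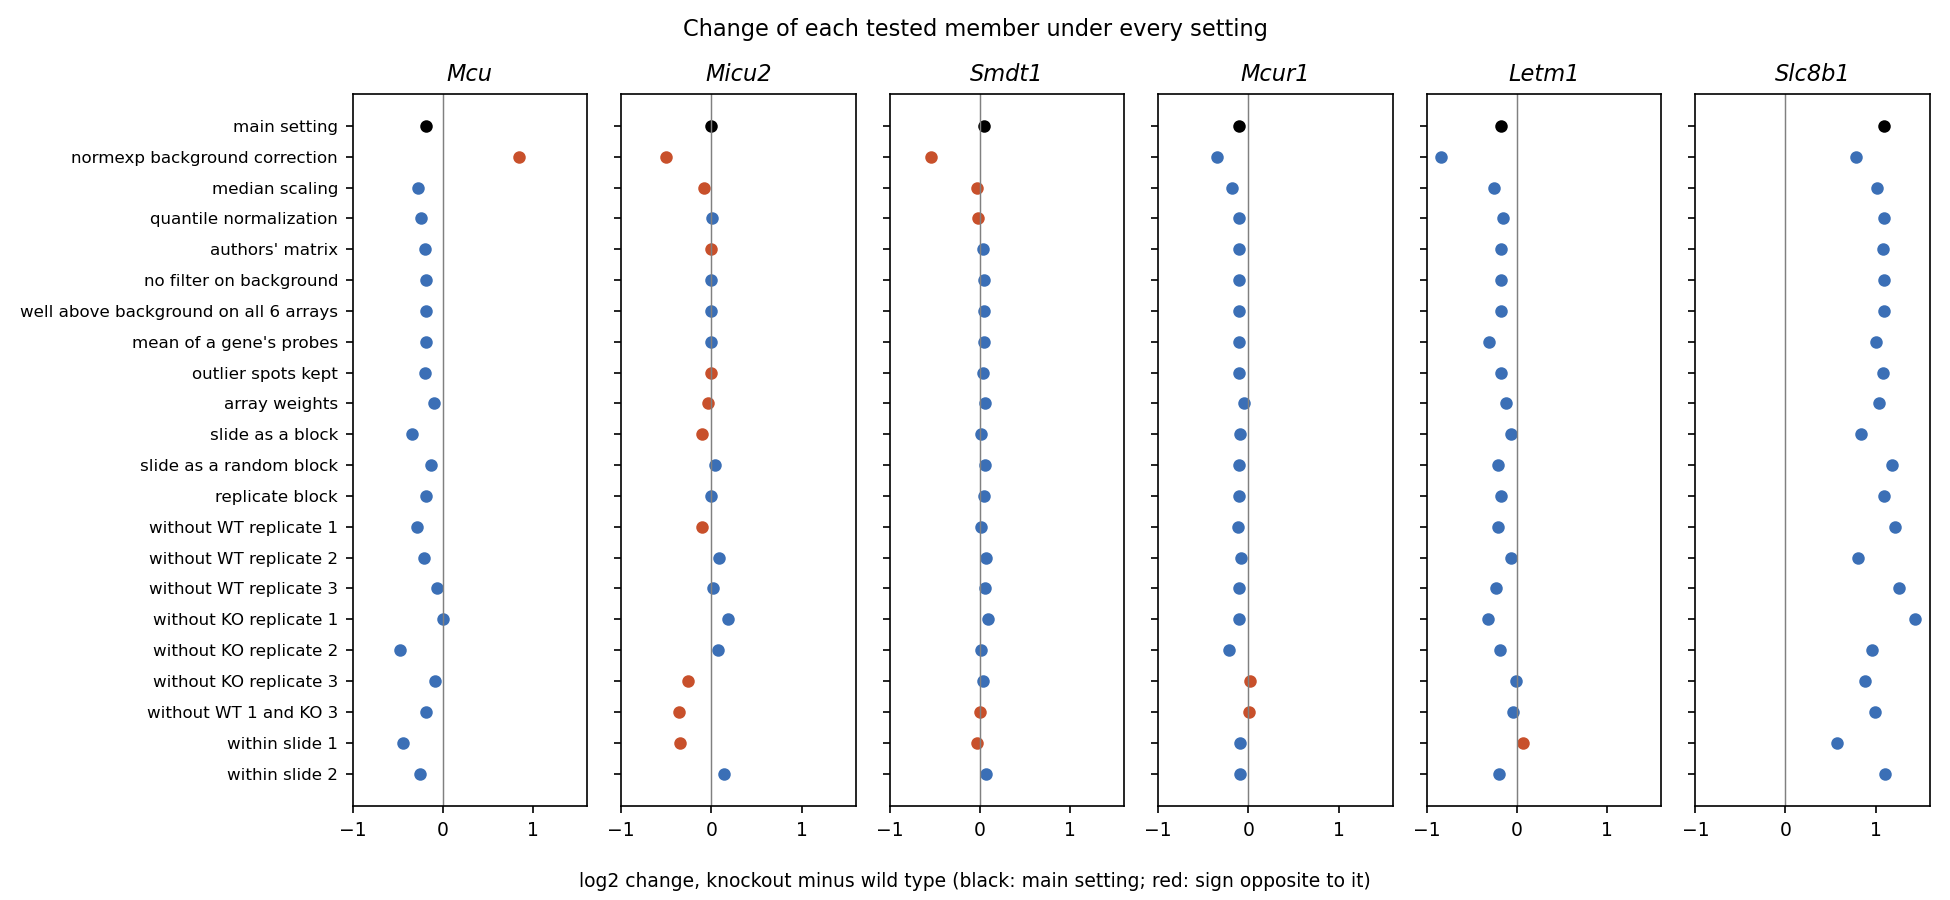
Log2 change, knockout minus wild type, of each tested member under the main setting (black) and every alternative (blue, or red where the sign is opposite to the main one). Slc8b1 stayed above 0 in each of them, from 0.57 within slide 1 to 1.44 without KO 1, while each of the other tested members lay on both sides of 0 over the settings.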

How the data were processed

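The authors deposited 1 table of intensity values per array, background-subtracted but unscaled, made with Agilent Feature Extraction (11.5.1.1 by the file headers, 10.7.3.1 by the submitters' processing notes). The authors' deposited log2 matrix of 20644 probes is scaled and centred per probe by its values. Its columns for KO 2 and KO 3 matched each other's scanner tables, so it served only for genotype means. Of 44397 spots per array, 1377 controls were dropped, as were 818 outlier spots over all arrays. Spots of a probe were averaged. Accessions named 28330 probes through a RefSeq table of GRCm38.p6, and coordinates are left out because the array design uses another build.

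A probe entered if well above background on all arrays of 1 genotype, and a gene was represented by its brightest such probe. Limma 3.58.1 in R 4.3.3 compared genotypes (two-sided, Benjamini-Hochberg adjustment) and was tested on simulated data. The number of arrays limits the precision. Members, lists, tests and alternatives were chosen with earlier results of these data known. Named were the members, Itpr2, from each list the 3 genes of highest level and the 2 of smallest p, and the 2 genes most like each member. Micu3, Alb, Ttr and Hnf4a were added outside that rule. Mcub did not pass the filter, so its planned fit and its difference from Mcu were not made. Normexp used the median signal, since the tables hold no mean signal, and an added offset of 50. Alternatives were normexp, 2 scalings, the authors' matrix, filters, probe rules, outliers kept, array weights, slide and replicate blocks and each array left out. Leaving out both muscle arrays was chosen after seeing the data.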

Additional observations from a re-analysis of the deposited data

How the results depend on the processing

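None of the 6 tested members passed the adjusted limma threshold under any alternative that has a test, and 3 arrays per genotype limit what could be called. Slc8b1 kept its sign in all of them, from 0.78 with normexp to 1.44 without KO 1. Normexp background correction gave 0.84 for Mcu, -0.51 for Micu2 and -0.54 for Smdt1, and differences from Mcu of -1.35 for Micu2, -1.38 for Smdt1 and -1.19 for Mcur1, all of opposite sign, and the cause was not tested. It also gave -0.84 for Letm1, -0.35 for Mcur1 and a median of -0.61 over the genes of the 4 lists, where the main value was -0.14. Over all genes the median was 0.094 with normexp and 0.022 in the main setting. Micu2, whose change was 0.00013, also turned with median scaling (-0.081), the authors' matrix (-0.0082), outlier spots kept (-0.0074), array weights (-0.038), the slide as a block (-0.10) and within slide 1 (-0.35). Smdt1 turned with median scaling (-0.036), quantile normalization (-0.020) and within slide 1 (-0.028), and Letm1 within slide 1 (0.068). Without WT 1 and KO 3 the values were -0.36 for Micu2, -0.0040 for Smdt1, 0.011 for Mcur1 and -0.17 for Micu2 minus Mcu.

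Leaving out 1 array gave -0.47 to -0.0031 for Mcu, -0.26 to 0.18 for Micu2, 0.0070 to 0.088 for Smdt1, -0.21 to 0.020 for Mcur1, -0.33 to -0.0080 for Letm1 and 0.80 to 1.44 for Slc8b1. For the differences the ranges were -0.17 to 0.55 for Micu2 minus Mcu, 0.091 to 0.49 for Smdt1 minus Mcu, -0.11 to 0.26 for Mcur1 minus Mcu and -1.76 to -0.87 for Letm1 minus Slc8b1. Over all genes, 1 passed the threshold, and that count was 0 with normexp, with all 6 arrays above background, with the replicate block, without WT 1 and KO 3, and without WT 1, WT 2, KO 1, KO 2 or KO 3, where the range was 0 to 1. Deviations from the genotype means correlated at -0.19, 0.042 and -0.28 between arrays of replicate numbers 1, 2 and 3. With 3 arrays per genotype these values cannot decide whether the numbers pair the arrays. The numbers of KO 2 and KO 3 also conflict between the scanner tables and the authors' matrix. With the replicate block the Slc8b1 change was 1.09 (limma adjusted p = 0.769).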

Other observations

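For each tested member, the genes with the most similar levels over the 6 arrays, by Pearson correlation among 13575 genes with a symbol, are given as a description. The values share the arrays' scaling, slides and tissue makeup. Nek8 and Tbc1d17 were most like Slc8b1 (0.995 for each), and their own log2 changes were 0.60 and 0.39. Commd1 and Nckap5 were most like Mcu (0.992 for each), Trim59 and Psmc3ip most like Micu2 (0.997 and 0.987), and Pir and Traf3ip2 most like Smdt1 (0.982 and 0.968). Mrpl19, a protein of the mitochondrial ribosome, and Smarcc2 were most like Mcur1 (0.995 and 0.992), and Tgfbrap1 and Lhfp most like Letm1 (0.996 for each). Between 23 genes for Smdt1 and 93 for Letm1 had a value over 0.95, and so few arrays with so many genes compared give high values readily.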
